A study of Mus musculus with 30 samples.

Results

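The nuclear genes of respiratory complex I were followed in 3T3-L1 cells, a mouse preadipocyte line that stores fat after culture in adipogenic medium. Members were chosen by name alone: every gene whose symbol starts with Nduf and one of the letters a, b, c, s or v followed by a digit, as well as Ndufab1 and the Ndufaf assembly factors, without symbols ending in -ps, and with more than 14 counts summed over the 30 libraries. This gave 49 of the 20139 genes that entered the tests, and 2 symbols ending in -ps (Ndufab1-ps and Ndufb1-ps) were left out. The annotation has Ndufb1-ps as a long noncoding RNA, but it may be the mouse locus of a distal arm subunit, so that 1 subunit may be missing from the members; it held 24649 counts in all and was not called for oxLDL vs Control (log2 fold change -0.10) or for oxLDL + pNaKtide vs oxLDL (0.19), the latter turning to a lower call (-0.26) with the offsets for gene length and GC content described further on. RNA had been sequenced in 6 groups of 5 libraries each: Control cells without agent, pNaKtide (0.7 µM), IS (indoxyl sulphate, 100 µM), IS + pNaKtide, oxLDL (oxidized low-density lipoprotein, 50 µg/mL) and oxLDL + pNaKtide. All groups were the same line in the same adipogenic medium (insulin, dexamethasone, isobutylmethylxanthine and indomethacin) for 5 days, and the labels give 5 days of treatment where the methods of the study give a shorter one. pNaKtide is a cell-permeant peptide made to block signaling through the Na,K-ATPase and Src, IS is a solute retained in renal failure, and oxLDL is an oxidized lipoprotein particle. The source was labelled as 3T3 cells while the extraction text names adipose tissue, and nothing in the labels says whether the 5 libraries of a group came from separate cultures, so p-values measure the spread between these libraries, which may be technical.

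Complex I, the NADH:ubiquinone oxidoreductase of the inner mitochondrial membrane, passes electrons from NADH to ubiquinone and pumps protons across the membrane. Its arm in the matrix is made of an N module, which oxidizes NADH, and a Q module, which reduces ubiquinone, and its membrane arm has a proximal and a distal part that pump protons. The mitochondrial genome encodes the hydrophobic core of the membrane arm (the mt-Nd genes), while the nuclear Nduf genes encode the other core subunits, the accessory subunits around them and assembly factors that are not part of the finished enzyme. In fat cells mitochondria also supply citrate and ATP for lipid synthesis.

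By role, 8 members belonged to the N module, 8 to the Q module, 9 to the proximal membrane arm, 11 to the distal membrane arm and 8 to the assembly factors. Ndufa4, found in complex IV as well as in preparations of complex I, and its paralog Ndufa4l2 were kept as a pair of their own. The remaining 3 members (Ndufa11b, Ndufb4c and Ndufs6b) are annotated as processed pseudogenes and carry the names of Ndufa11, Ndufb4 and Ndufs6. Their sequence identity to these genes was not measured here, and reads may be split between each copy and its partner, and the same holds for Ndufab1 and Ndufab1-ps; their values are uncertain for that reason. Members took between 0.475 and 0.704% of the counts of a library. Measured per length, as FPKM (fragments scaled to gene length and library depth), the members with high levels in Control cells included the pseudogene Ndufb4c (250.4 ± 45.3, SD, n = 5), Ndufb9 (223 ± 35.9), Ndufb11 (221 ± 45.1) and Ndufa13 (216 ± 52.7), which differed from each other by less than their SDs. The 8 assembly factors lay between 3.06 FPKM (Ndufaf2) and 17.8 FPKM (Ndufaf1), below most of the structural subunits, and Ndufa4l2, a paralog known for its induction in hypoxia, was the lowest member at 0.312 ± 0.147 FPKM. Ndufa4l2 held 113 counts over all 30 libraries, or 0.0681 to 0.588 CPM (counts scaled to a library size corrected by TMM, which is the CPM used throughout), and no fold change is given for it.

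The depth was 6945498 to 15159877 counts per library with a median of 11524210. In a principal component analysis of 13622 genes the leading axis took up 59.1% of the variance, and there Control replicate 1 (-27.3) lay apart from the other Control libraries (7.37 to 31.7) and IS replicate 4 (29.6) apart from the other IS libraries (-38.9 to -24.5), each inside the range of the other group. Nothing in the labels bears on an exchange of these libraries, which was not tested, and results that rest on them are given with and without them. The summed CPM of 8 adipocyte markers was high in every library, from 11255 to 17604, with medians of 15242 in Control, 14011 in oxLDL and 15939 in oxLDL + pNaKtide libraries. Of 4 macrophage markers Ptprc was at 0 in all libraries and their sum was 3.12 to 7.56 CPM. The endothelial markers Cdh5, Kdr and Pecam1 held 6, 8 and 79 counts in all. In such bulk RNA, fewer cells of a type and less RNA per cell cannot be told apart.

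Members were compared between oxLDL and Control cells to ask how the lipoprotein moved complex I transcripts. In oxLDL cells 25 members were lower and 4 higher than in Control cells, at a BH-adjusted p of 0.1 in edgeR's quasi-likelihood test fitted across all genes, where 18.0% of all genes tested were lower and 18.1% higher. The median log2 fold change of the 49 members was -0.27, beside 0.04 for all genes, and 38 members had a negative value. Lower calls were found in both arms of the enzyme: 5 of 8 N module members, 4 of 8 Q module members, 5 of 9 proximal and 7 of 11 distal membrane arm members fell, as did 2 of the 3 copies. With scaling by library size alone these counts were 2, 2, 5, 5 and 1, with 1 Q module member higher, and with the length and GC offsets they were 4, 3, 4, 4 and 0, with 2 Q module members higher. Among the 8 assembly factors 2 fell and 2 rose, against 0 and 3 with scaling by library size alone. Without Control replicate 1 the count was 29 lower and 4 higher (21.7% and 24.2% of all genes). When the counts were scaled by library size alone the all-gene median moved to 0.17, with 15 members lower, 6 higher (11.3% and 24.6% of all genes) and a member median of -0.14.

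**Figure D1:**
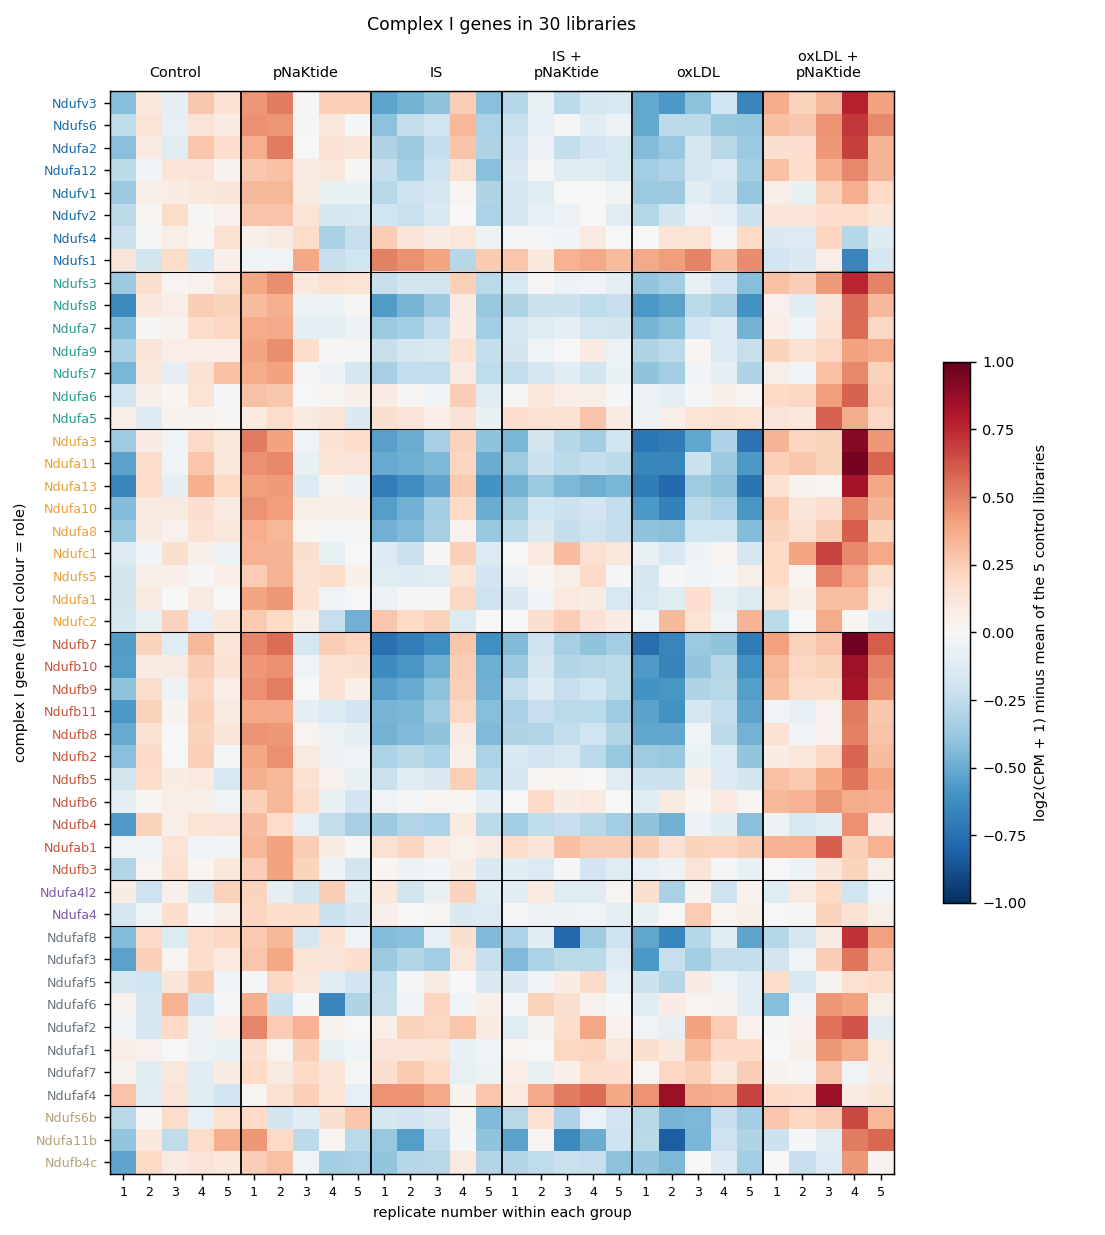
Each cell gives log2(CPM + 1) of 1 of 48 members (rows, ordered by role) in one library (columns, 5 per group) minus the mean of the 5 Control libraries. Most rows are below the Control mean in oxLDL libraries and above it in oxLDL + pNaKtide libraries, while Control replicate 1 looks like the oxLDL libraries and IS replicate 4 unlike the other IS libraries.

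In the proximal membrane arm, the part of the membrane arm next to the matrix arm, the small accessory subunit Ndufa3 was at 73.8, 100.3, 92.4, 108 and 102 CPM in Control replicates 1 to 5 and at 56.7, 57.9, 65.7, 75.9 and 56.2 CPM in oxLDL replicates 1 to 5. Only Control replicate 1 lay inside the oxLDL range, and the log2 fold change was -0.61 (SE 0.14, adjusted p = 0.00783, 0.656-fold). Ndufa13, an accessory subunit also known as GRIM-19, gave 169, 302, 250.4, 341 and 305 CPM in Control and 164, 155, 207, 199.7 and 159 CPM in oxLDL libraries, a change of -0.63 on the log2 scale (SE 0.18, adjusted p = 0.0132). It was the member with the most negative value, and again Control replicate 1 alone overlapped the oxLDL libraries. Ndufa11, a membrane subunit, was at 67.2, 111, 95.1, 119 and 106 CPM in Control and 61.8, 61.9, 84.0, 75.7 and 65.2 CPM in oxLDL libraries (log2 fold change -0.52, SE 0.15, adjusted p = 0.0160), a call lost with the length and GC offsets (-0.15). Its shorter copy Ndufa11b had fewer counts, at 1.72, 2.85, 2.01, 3.06 and 3.59 CPM in Control and 1.98, 1.02, 1.61, 2.1 and 1.90 CPM in oxLDL libraries, with a change of -0.61 on the log2 scale (SE 0.25, adjusted p = 0.0676) that missed the threshold in 4 of 10 fits with 1 library left out and with the offsets (-0.12).

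In the distal membrane arm Ndufb7, a subunit on the intermembrane space side, was at 85.1, 147, 116, 158 and 138 CPM in Control and 74.2, 79.4, 97.0, 95.2 and 77.1 CPM in oxLDL libraries. All Control libraries but replicate 1 lay above the oxLDL libraries, and the log2 fold change was -0.61 (SE 0.18, adjusted p = 0.0147). Ndufb10, another intermembrane space subunit, fell by 0.53 log2 units (SE 0.15, adjusted p = 0.0130). Against this trend Ndufab1, the mitochondrial acyl carrier protein that is also used in fatty acid synthesis and iron-sulfur cluster assembly, was at 72.5, 72.6, 81.8, 72.8 and 73.3 CPM in Control and at 88.7, 82.6, 87.3, 86.6 and 88.5 CPM in oxLDL libraries. Every oxLDL library was above every Control library, by a change of 0.22 on the log2 scale (SE 0.08, adjusted p = 0.0335), though with the length and GC offsets the call was lost and the value was -0.05.

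Among the catalytic core subunits of the matrix arm the changes differed in direction. Ndufv1, which binds NADH and its first electron acceptor FMN, was at 206, 277, 279.7, 286 and 289 CPM in Control and 205, 206, 245, 236 and 203 CPM in oxLDL libraries (log2 fold change -0.29, SE 0.10, adjusted p = 0.0345), and its call was lost with the length and GC offsets (-0.0492). Control replicate 1 fell inside the oxLDL range and the other 4 Control libraries lay above it. Ndufs7, which carries the last iron-sulfur cluster before quinone, was at 74.8, 112, 96.8, 114 and 127 CPM in Control and 78.1, 81.2, 101, 96.7 and 83.8 CPM in oxLDL libraries, overlapping groups with a change of -0.25 on the log2 scale (SE 0.12, adjusted p = 0.125). Ndufs1, the iron-sulfur subunit through which electrons cross the N module, went the other way, from 214, 173, 223, 173 and 203 CPM in Control to 255, 262, 277, 241 and 273 CPM in oxLDL libraries. No oxLDL library reached down to the Control range, and the log2 fold change was 0.41 (SE 0.13, adjusted p = 0.0205), a call that was lost with the offsets (0.13).

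The accessory N module subunit Ndufs6, which takes part in attaching that module late in assembly, was the only member whose 5 oxLDL libraries all lay below the 5 Control libraries, at 31.9, 38.2, 38.2, 35.1 and 35.0 CPM against 38.3, 50.7, 43.4, 50.3 and 48.6 CPM (log2 fold change -0.38, SE 0.12, adjusted p = 0.0217). Over all genes 3.52% were fully below Control in this way, so 1 of 49 members was near that background. In the other direction 4 members lay fully above Control, and the share of all genes for this was not computed. Among the assembly factors, Ndufaf4, which acts with Ndufaf3 on the Q module, had the most positive value of the members, a call that was lost with the length and GC offsets (0.00): 17.0, 12.6, 15.1, 12.6 and 11.9 CPM in Control and 19.1, 25.7, 18.2, 18.0 and 22.5 CPM in oxLDL libraries, without overlap (log2 fold change 0.58, SE 0.14, adjusted p = 0.00812). Its partner Ndufaf3 was lower (log2 fold change -0.37, SE 0.14, adjusted p = 0.0434). Ndufaf1, a factor of the membrane arm assembly complex, rose by 0.20 log2 units (SE 0.09, adjusted p = 0.0903), and Ndufaf8, a partner of the Ndufs7 hydroxylase Ndufaf5, fell by 0.49 log2 units (SE 0.19, adjusted p = 0.0505). With the offsets the calls of Ndufaf3 (-0.10), Ndufaf1 (0.10) and Ndufaf8 (-0.12) were lost as well, and of 10 fits with 1 library left out 7 called Ndufaf3, 2 Ndufaf1 and 4 Ndufaf8.

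**Figure D2:**
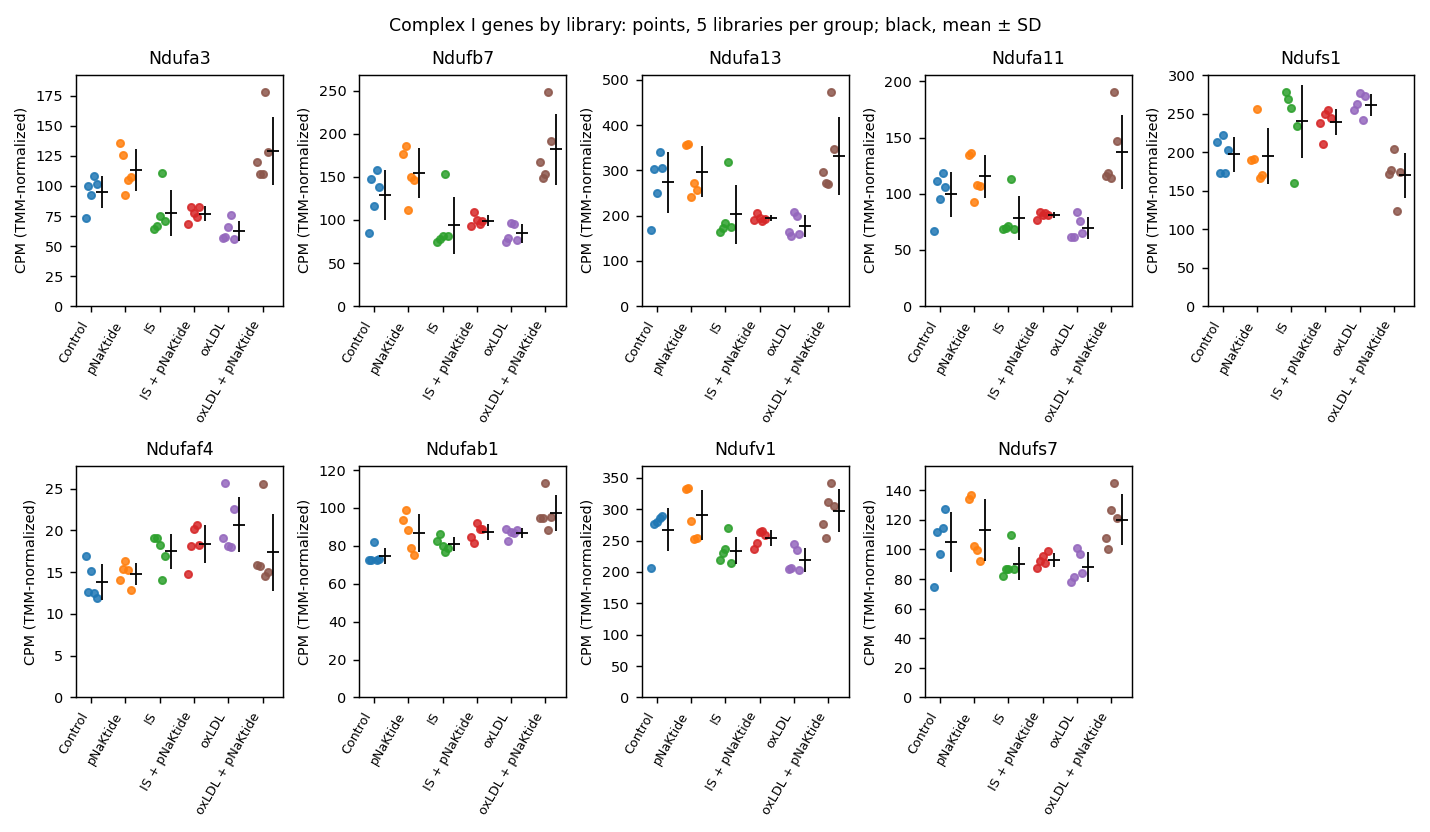
Points are TMM-normalized CPM of 9 members in single libraries, 5 per group, on axes that start at 0, and the black marks show the group mean ± SD. For Ndufa3, Ndufb7, Ndufa13 and Ndufa11 the oxLDL libraries are low and the oxLDL + pNaKtide libraries high, and Ndufs1 shows the opposite order.

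The comparison of oxLDL + pNaKtide with oxLDL cells asked what the peptide changed in the presence of the lipoprotein. Here 37 of 49 members were higher and 1 (Ndufs1) lower, with a median log2 fold change of 0.45 against -0.09 for all genes, of which 22.1% were higher and 26.1% lower. All 8 Q module members rose, as did 8 of 9 proximal and 10 of 11 distal membrane arm members, 6 of 8 N module members, the 3 copies and 2 of 8 assembly factors, of which, with scaling by library size alone, 2 rose and 3 fell. For 27 members every oxLDL + pNaKtide library lay above every oxLDL library, which held for 13.6% of all genes. With scaling by library size alone the all-gene median was -0.30, and 27 members were higher and 7 lower (13.4% and 38.1% of all genes) with a member median of 0.23. With the length and GC offsets 0 of the 3 copies rose and 1 fell, and 4 of 8 Q module members rose. These comparisons share the oxLDL libraries with those above, so opposite signs between them are not independent, and the values are given side by side only.

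Ndufb7 had the largest log2 fold change of the members, 1.11 (SE 0.18, adjusted p = 3.34e-05, 2.15-fold), with 167, 148, 153, 249 and 192 CPM in the oxLDL + pNaKtide libraries. Ndufa3 followed with 119.6, 109.7, 110.3, 178 and 128 CPM and a change of 1.05 on the log2 scale (SE 0.14, adjusted p = 8.65e-06). Ndufa11 was at 116, 118, 114, 191 and 147 CPM, a change of 0.98 on the log2 scale (SE 0.15, adjusted p = 2.63e-05), and Ndufa13 at 295, 272, 269.8, 474 and 347 CPM, a change of 0.91 on the log2 scale (SE 0.18, adjusted p = 0.000195). In all of these the 5 libraries were above the 5 oxLDL libraries, and replicate 4 was the highest. Ndufa11b, at 2.08, 2.53, 2.31, 4.14 and 4.33 CPM, overlapped the oxLDL libraries, with a change of 0.82 on the log2 scale (SE 0.26, adjusted p = 0.00995) that was lost with the length and GC offsets (0.10).

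In the matrix arm Ndufv1 was at 276, 254, 311, 342 and 305 CPM with oxLDL + pNaKtide, all above the oxLDL libraries (log2 fold change 0.44, SE 0.10, adjusted p = 0.000788), although the call was lost with the offsets (0.15). Ndufs3, a core subunit on which the Q module is built, gave 202, 196, 222, 280.1 and 233 CPM where the oxLDL libraries were at 125, 129.6, 157, 145 and 123 CPM, and it rose by 0.74 log2 units (SE 0.11, adjusted p = 1.61e-05). Ndufs7 rose to 107, 100.1, 127, 145 and 122 CPM (log2 fold change 0.45, SE 0.12, adjusted p = 0.00409), its groups overlapped by 1 library, and with the offsets the call was lost (0.02). Ndufs1 was at 172, 177, 205, 124 and 174 CPM, below every oxLDL library and lowest in replicate 4 (log2 fold change -0.62, SE 0.13, adjusted p = 0.000314), and this call too was lost with the offsets (-0.19). Ndufab1 was at 94.7, 94.9, 113, 88.2 and 95.1 CPM, of which replicate 4 lay among the oxLDL libraries, and the log2 fold change was 0.17 (SE 0.08, adjusted p = 0.0799), called in 5 of 10 fits with 1 library left out and at 0.58 with the offsets. Ndufaf4 was at 15.9, 15.7, 25.6, 14.6 and 15.0 CPM, with replicate 3 apart from the others, and did not pass the test (log2 fold change -0.25, SE 0.14, adjusted p = 0.154), while with the length and GC offsets its value turned to 0.49 and passed (SE 0.10, adjusted p = 0.000290).

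**Figure D3:**
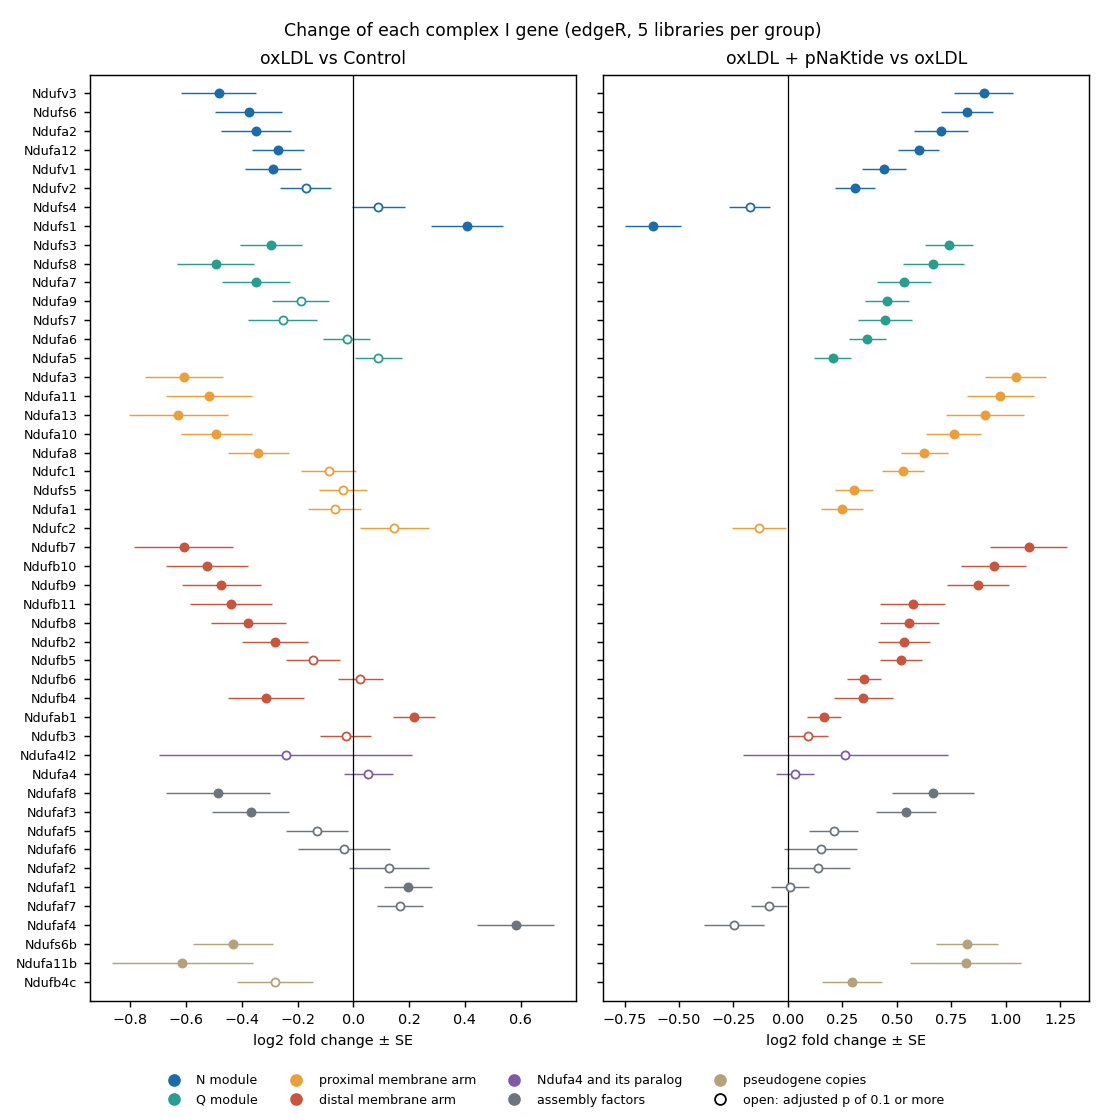
Log2 fold changes of 48 members with bars of 1 SE, ordered by role, for oxLDL vs Control and for oxLDL + pNaKtide vs oxLDL, with open symbols where the adjusted p was 0.1 or more. Most members lie left of 0 in the first comparison and right of 0 in the second, with Ndufs1 reversed and the assembly factors on both sides of 0.

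Compared directly with Control cells, oxLDL + pNaKtide cells had 12 members higher and 0 lower (median log2 fold change 0.25, all genes -0.03), where 2.04% of all genes were higher and 3.16% lower. These were 3 each of the N module (Ndufs6, Ndufa12, Ndufv3), the Q module (Ndufs3, Ndufa6, Ndufa5), the proximal arm (Ndufa3, Ndufc1, Ndufs5) and the distal arm (Ndufab1, Ndufb5, Ndufb6), and none of the assembly factors. Ndufab1 had the smallest adjusted p (log2 fold change 0.38, SE 0.08, adjusted p = 0.00571), with all 5 libraries above the Control libraries. Ndufs3 (log2 fold change 0.45, SE 0.11, adjusted p = 0.0219) and Ndufs6 (0.45, SE 0.12, adjusted p = 0.0330) were also without overlap. In all, 13 of 49 members had every library above every Control library, and the share of all genes for this was not computed. The count fell to 7 without oxLDL + pNaKtide replicate 4 (1.13% of all genes higher), was 8 without Control replicate 1 (1.20%) and rose to 20 without oxLDL + pNaKtide replicate 2 (3.36%).

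For the pNaKtide peptide on its own 0 of 49 members were called against Control by edgeR, where 0.00497% of all genes were called in either direction. In the same edgeR test 6 members had an unadjusted p under 0.05, as did 1233 of the 20139 genes tested. DESeq2 called 1 member. The median log2 fold change was 0.13, and the values ran from -0.16 to 0.28. The pNaKtide libraries were split, with a summed level of the members of 7337 and 7399 CPM in replicates 1 and 2 and 5969, 5710.3 and 5598 CPM in replicates 3 to 5, beside 4498 CPM in Control replicate 1 and 5950.2 to 6345 CPM in the other Control libraries. Leaving out replicate 1 or replicate 2 also gave 0 called members. For Ndufb7 the log2 fold change was 0.26 with a 95% interval of -0.09 to 0.60, so that a rise of the size measured beside oxLDL lay outside it. In a test of the difference itself, the signed change with the peptide beside oxLDL was above that with the peptide alone for 19 members and below it for 1, Ndufs1 (-0.62 beside oxLDL and -0.01 alone), where 12.8% of all genes were called above and 11.8% below. The difference was 0.85 for Ndufb7 (SE 0.25, adjusted p = 0.0315), 0.80 for Ndufa3 (SE 0.20, adjusted p = 0.0225) and -0.60 for Ndufs1 (SE 0.18, adjusted p = 0.0330) on the log2 scale. Without Control replicate 1, 32 members were called above and 1 below (18.1% and 19.1% of all genes). With the length and GC offsets 16 were called above and 0 below (7.48% and 3.99% of all genes), and the difference of Ndufs1 was -0.25 (adjusted p = 0.251) and no longer called.

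In IS cells Ndufa8, a subunit on the intermembrane space side of the membrane arm, was the single member called lower (log2 fold change -0.32, SE 0.11, adjusted p = 0.0907) by edgeR, with 0 higher, where 3.49% of all genes were lower and 4.45% higher. Its Control libraries were at 126, 173, 169.5, 181 and 178 CPM and its IS libraries at 117, 120.2, 130.5, 169 and 126 CPM, so that Control replicate 1 lay among the lower IS libraries and IS replicate 4 close to the other Control libraries. The call of Ndufa8 was lost with the length and GC offsets (-0.09), where 3 other members were called (Ndufa4 and Ndufv2 lower, Ndufa6 higher). In that fit 435 of the 20139 genes tested were lower and 342 higher. DESeq2 called 9 members, for which no share of all genes is given. The median log2 fold change of the members was -0.18, and 19 had an unadjusted p under 0.05, as did 5036 of the 20139 genes tested. Cell markers moved in the same comparison: of 8 adipocyte markers 1 rose (Cd36, 0.45) and 3 fell (Cebpa, -0.46), with summed levels of 11255 to 13420.0 CPM in IS and 13094 to 15974 CPM in Control libraries, and of 6 preadipocyte and fibroblast markers 3 fell (Col3a1, -0.41). Their part in the change of the members was not tested. This comparison turned on those libraries: 2 members were higher and 24 lower without Control replicate 1 (18.1% and 15.1% of all genes), 2 and 24 without IS replicate 4 (17.2% and 17.3%), and 2 and 31 without both (23.8% and 21.6%), while leaving out any of the other 8 Control and IS libraries gave 0; libraries of the remaining groups were not left out in this comparison. The IS libraries other than replicate 4 were at 64.4, 66.7, 75.0 and 71.1 CPM for Ndufa3 and replicate 4 was at 111 CPM, above all Control libraries. For Ndufb7 they were at 74.5, 77.4, 81.6 and 81.8 CPM and replicate 4 at 153 CPM. For Ndufs1 the order was opposite, with 279, 269, 257 and 235 CPM in the others and 161 CPM in replicate 4. Both libraries were kept in their labelled groups.

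**Figure D4:**
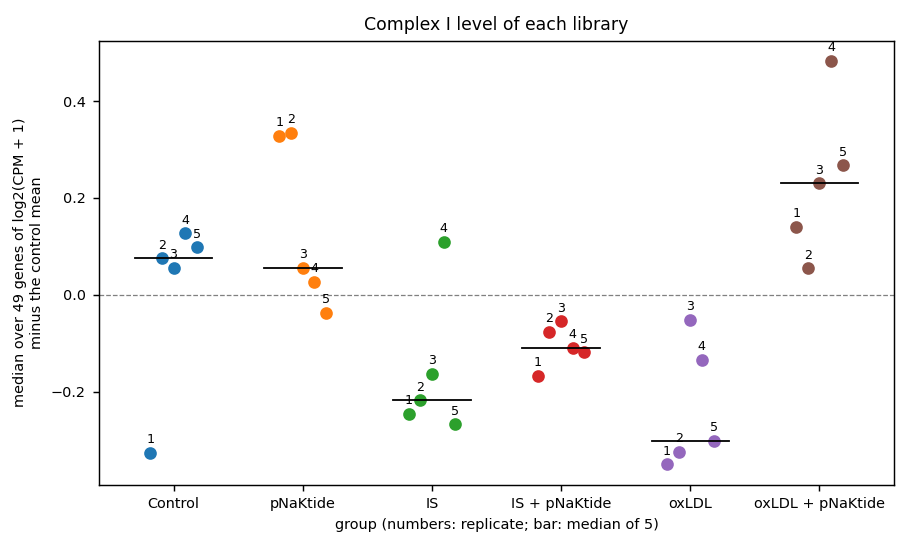
Each point is the median over the 49 members of log2(CPM + 1) minus the mean of the Control libraries, for one library, by group. The oxLDL libraries lie between -0.35 and -0.05 and the oxLDL + pNaKtide libraries between 0.05 and 0.48, while Control replicate 1 (-0.33) and IS replicate 4 (0.11) are away from their groups.

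Adding pNaKtide to IS gave no called member by edgeR or DESeq2 (0 of 49, and 0% of all genes by edgeR). The median log2 fold change was 0.05, with values from -0.12 to 0.18. By edgeR 0 members had an unadjusted p under 0.05, where 564 of the 20139 genes tested did. In IS + pNaKtide cells the libraries lay close together, for example 92.6, 109, 100.0, 95.2 and 98.6 CPM for Ndufb7 and 68.5, 82.8, 77.3, 74.2 and 82.3 CPM for Ndufa3. Against Control 0 members were called by edgeR (0.358% of all genes) and 3 by DESeq2. By edgeR 16 were at an unadjusted p under 0.05, as were 4022 of the 20139 genes tested. Without Control replicate 1 there were 2 higher and 18 lower (14.4% and 12.3% of all genes). IS and oxLDL cells, compared with each other, differed in 0 members by edgeR or DESeq2 (0.0149% of all genes by edgeR), with a median log2 fold change of 0.06. By edgeR 1 member had an unadjusted p under 0.05 there, as did 1047 of the 20139 genes tested. The peptide's change beside IS was called different from that of the peptide alone for 0 members by edgeR or DESeq2 (0% of all genes by edgeR). By edgeR 0 members had an unadjusted p under 0.05 for it, where 619 of the 20139 genes tested did. The peptide's signed change beside oxLDL was above that beside IS for 27 members and below it for 1, Ndufs1 (-0.62 beside oxLDL and -0.0035 beside IS). Over all genes 13.9% were called above and 15.4% below. The difference was 1.05 for Ndufa3, 1.02 for Ndufb7 and -0.61 for Ndufs1 on the log2 scale, and 24 members were called above and 1 below without Control replicate 1 and IS replicate 4 (11.1% and 13.2% of all genes). With the length and GC offsets 24 were above and 0 below (10.9% and 6.89% of all genes), with Ndufs1 at -0.23 (adjusted p = 0.266) and not called.

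GC content and length moved with these changes. Members were short genes (median exon length 1501 bases, beside 3108 for all genes tested) of slightly higher GC content (51.0%, beside 49.4%). Across members the log2 fold change of oxLDL vs Control was correlated with GC content at r = -0.69, and that of oxLDL + pNaKtide vs oxLDL at r = 0.61, where r was -0.43 and 0.45 over 20107 genes; these points share their libraries and are a description. Of the 27 members with a GC content above the median of all genes 21 were lower with oxLDL and 0 higher, where 31.0% of all genes above that median were lower and 3.32% higher. Of the other 22 members 4 were lower and 4 higher, where 5.01% and 32.8% of the other genes were. Each library's smooth trend of counts over gene length and GC content was then taken as an offset in edgeR. Being fitted to the same counts, the offsets also take out any true change that goes with length or GC content. With them 17 members were lower and 3 higher with oxLDL (12.4% and 7.77% of all genes), with a median of -0.12. In that fit 27 members were higher and 2 lower with oxLDL + pNaKtide against oxLDL (20.0% and 16.7% of all genes), with a median of 0.26, and 19 were higher with oxLDL + pNaKtide against Control (5.03% of all genes). The correlations with GC content were then 0.21 and -0.29. Those with log2 exon length turned as well, from 0.31 to -0.36 for oxLDL vs Control and from -0.26 to 0.48 for oxLDL + pNaKtide vs oxLDL, so that a relation with length among the members remained after the offsets, of the opposite sign, where over all genes r was -0.04 and 0.02.

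Both fits called 11 members lower with oxLDL, which held for 8.52% of all genes: Ndufa3, Ndufa10 and Ndufa13 of the proximal arm, Ndufb2, Ndufb7, Ndufb8 and Ndufb10 of the distal arm, Ndufs6 and Ndufv3 of the N module and Ndufa7 and Ndufs8 of the Q module. No member was called higher in both. Ndufb7 kept a log2 fold change of -0.46 (adjusted p = 0.0586) and Ndufa3 one of -0.36 (adjusted p = 0.0102) with the offsets. The higher calls were lost, with values of 0.13 for Ndufs1, -0.05 for Ndufab1 and 0.00 for Ndufaf4. For oxLDL + pNaKtide against oxLDL 22 members were called higher in both fits (14.1% of all genes), among them Ndufb7 at 0.98 and Ndufa3 at 0.68 with the offsets, while Ndufs1 was at -0.19 (adjusted p = 0.124) and Ndufs7 at 0.02.

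**Figure D5:**
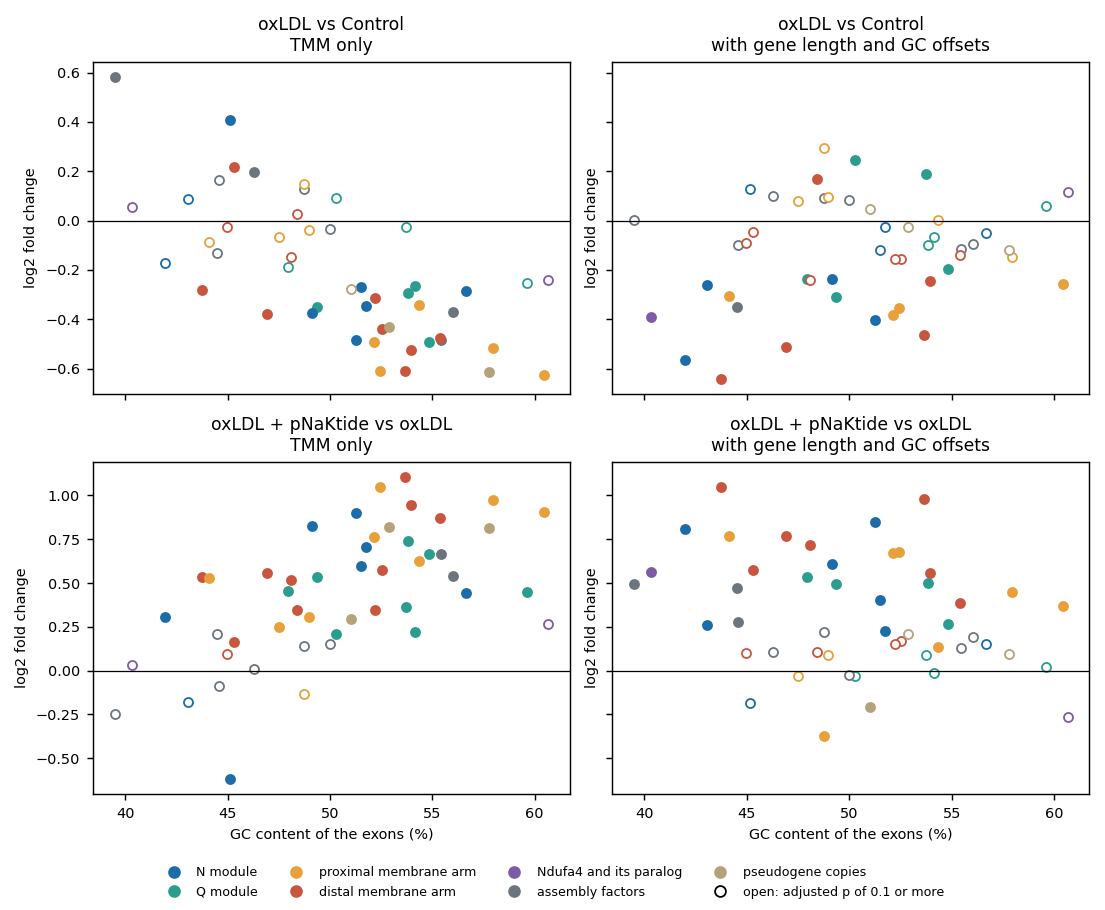
Log2 fold change of each of the 49 members against the GC content of its exons in percent, for oxLDL vs Control and oxLDL + pNaKtide vs oxLDL, with TMM scaling alone and with offsets for gene length and GC content. With TMM alone r was -0.69 and 0.61. With the offsets, which were fitted to these same counts to take out such trends, r was 0.21 and -0.29.

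The other genes of the respiratory chain were read from lists written for this purpose, and their counts stand beside 18.1% of all genes higher and 18.0% lower with oxLDL, and 22.1% higher and 26.1% lower with the peptide beside oxLDL. Apart from the mt-Nd genes, counts with the length and GC offsets are not given for these lists or for those of the next paragraph. How far their calls go with the trend over GC content therefore cannot be read here. Of the 7 mitochondrial mt-Nd genes, which encode the remaining complex I subunits, 0 were called with oxLDL against Control by edgeR or DESeq2 and 0 had an unadjusted p under 0.05, with values from 0.03 to 0.35, although 5 were lower with the offsets and 2 higher with library size alone. Of the same genes 4 were higher with oxLDL + pNaKtide against oxLDL, led by mt-Nd6 (log2 fold change 0.60, SE 0.12, adjusted p = 0.000244). Of 11 measured complex I assembly factors with other names, 3 rose and 3 fell with oxLDL, led by Tmem70 (0.55) and Ecsit (-0.34) on the log2 scale, and 4 rose and 5 fell with the peptide beside oxLDL, led by Dmac1 (0.52) and Tmem126b (-0.76), a member of the membrane arm assembly complex. The complex III list included the assembly factors Bcs1l and Ttc19, whereas those of complex I were kept apart. It had 1 of 11 genes higher (Ttc19, 0.33) and 7 lower (Uqcrc1, -0.44) with oxLDL. With the peptide 7 were higher (Uqcr11, 0.70) and 1 lower (Ttc19, -0.29). Complex IV had 1 of 12 higher (Cox7b, 0.26) and 6 lower (Cox4i1, -0.51) with oxLDL, and 8 higher (Cox5b, 0.97) and 0 lower with the peptide. In complex V, the ATP synthase, 1 of 16 measured genes was higher (Atp5f1, 0.22) and 10 lower (Atp5g1, -0.65) with oxLDL, and 13 were higher (Atp5g1, 1.12) and 0 lower with the peptide. With library size alone, where 24.6% of all genes were higher and 11.3% lower with oxLDL and 13.4% and 38.1% with the peptide, complex III had 2 higher and 4 lower with oxLDL and 5 and 3 with the peptide, complex IV 1 and 4, then 6 and 2, and complex V 2 and 6, then 10 and 1. The same scaling gave 5 higher and 2 lower, then 3 and 6, for the assembly factors with other names. The list for complex II, the succinate dehydrogenase, held its assembly factors (the Sdhaf genes) as well as its subunits. It had 3 of 8 higher (Sdhaf3, 0.44) and 2 lower (Sdhc, -0.35) with oxLDL. With the peptide 4 were higher (Sdhaf1, 0.47), a direction that turned with scaling by library size alone (1 higher and 4 lower). Of the subunits, Sdhd was higher (0.20) and Sdhc lower with oxLDL, and Sdhb (0.28) and Sdhc (0.31) were higher with the peptide.

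Of 11 regulators of mitochondrial biogenesis 7 rose with oxLDL, led by the transcription factor Tfb2m (log2 fold change 0.70), and 1 fell, the mitochondrial RNA polymerase Polrmt (-0.35). With the peptide beside oxLDL 2 rose (Polrmt, 0.37) and 6 fell, led by Gabpa (-1.01), the DNA-binding subunit of NRF2 (GABP), where library size alone gave 0 higher and 8 lower. Iron-sulfur cluster assembly, which supplies the clusters of the matrix arm, had 3 of 14 measured genes lower with oxLDL, a share near that of all genes, and 5 higher (Bola3, 0.78) and 1 lower (Nfs1, -0.24) with the peptide; with library size alone these were 3 higher and 2 lower with oxLDL and 3 higher and 2 lower with the peptide. Among 8 adipocyte markers 1 rose (Cd36, 0.53) and 2 fell (Cebpa, -0.30) with oxLDL, and 3 rose (Adipoq, 0.44) and 1 fell (Cd36, -0.73) with the peptide, while with library size alone 3 rose and 0 fell with oxLDL and 1 rose and 2 fell with the peptide. Among 6 preadipocyte and fibroblast markers 2 fell with oxLDL (Dlk1, -0.69), and 2 rose (Dlk1, 1.00) and 1 fell (Pdgfra, -0.57) with the peptide, while with library size alone there were 1 higher and 1 lower with oxLDL and 2 and 2 with the peptide. The part of these marker changes in those of the complex I members was not tested.

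Promoter sequences from RefSeq (GRCm38.p6) were found for 40 of the 49 members, 42 promoters in all, and the 250 bases upstream of each start were searched on both strands for the cores of motifs tied to nuclear genes of the respiratory chain. The letters TGCGCA, the core of the NRF1 motif, which reads the same on both strands, were present in 9 of 42 member promoters and in 6.43% of 32851 promoters. CCGGAA or its reverse complement, the core bound by ETS factors such as GABPA, was present in 10 of 42 and in 12.03%, and the YY1 core ATGGCG or its reverse complement in 6 of 42 and in 5.73%. As 2 members had more than 1 promoter, the counts by gene were 8 of 40 for the NRF1 core, 10 for the ETS core and 5 for the YY1 core. The median GC content of these windows was 58.2% for members and 52.4% for all promoters. The 120 bases upstream of the start are shown for 4 members, in lower case with the motif in capitals and in the direction of transcription: Ndufa3 (chr7:3617253-3617372, plus strand), which fell with oxLDL and holds none of these letters, Ndufv3 (chr17:31519995-31520114, plus strand), which fell and holds the ETS core at -85, Ndufb6 (chr4:40279422-40279541, minus strand), which was not called with oxLDL and holds the NRF1 core at -78, and Ndufaf4 (chr4:24897963-24898082, plus strand), which rose and holds the NRF1 core at -114. A match of letters is a description and not a binding site.
Ndufa3: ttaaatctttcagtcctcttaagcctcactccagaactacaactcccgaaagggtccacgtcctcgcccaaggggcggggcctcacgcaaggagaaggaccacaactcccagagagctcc
Ndufv3: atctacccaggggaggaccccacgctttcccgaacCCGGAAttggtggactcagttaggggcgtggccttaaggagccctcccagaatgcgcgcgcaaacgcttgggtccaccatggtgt
Ndufb6: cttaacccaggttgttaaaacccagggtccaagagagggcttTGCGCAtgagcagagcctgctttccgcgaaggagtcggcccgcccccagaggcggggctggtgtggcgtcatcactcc
Ndufaf4: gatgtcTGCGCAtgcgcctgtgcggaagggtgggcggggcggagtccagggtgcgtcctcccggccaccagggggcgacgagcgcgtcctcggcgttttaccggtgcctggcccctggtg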

How the data were processed

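RNA of 3T3-L1 cells was measured in 6 groups of 5 libraries, grouped by their labels. The count values are those the authors deposited: stranded mRNA libraries were read from both ends, trimmed (Trimmomatic 0.38), aligned to GRCm38 (HISAT2 2.1.0) and tallied per gene with GenomicAlignments, with no normalization and no pooling. The FPKM values were deposited by the authors, who scaled counts to depth and to 1 length per gene; they were used for levels between genes and for 1 alternative. The authors' normalized signal values (counts divided by 1 size factor per library) were not used in any result. The annotation release, lengths and use of strand in counting are not given in sources used here, so reads of overlapping or antisense genes may not be told apart. Depth limits the precision of low members, and all members passed the filter of more than 14 counts over 30 libraries.

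The counts of 20139 genes were fitted for the 6 groups together, after TMM scaling, with edgeR 4.0.16 (robust quasi-likelihood test, two-sided) in R 4.3.3, and p-values were adjusted over all genes within each of 8 comparisons and 3 differences of comparisons. Levels are TMM-normalized CPM. Offsets for each library's trend over gene length and GC content were made with mgcv 1.9.3. The lowest chi-square per degree of freedom within a group was 1.301 over 60 pairs of libraries, so none was a duplicate. Exon length and GC content came from the GENCODE M21 models and promoters from RefSeq.

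The members, roles and lists were chosen with earlier results of these data known. Values in every library were given for at most 3 called members in each direction with the largest change in oxLDL vs Control and in oxLDL + pNaKtide vs oxLDL, for Ndufv1, Ndufs1, Ndufs7 and Ndufab1 (for Ndufa4l2, near 0, only the range), and for Ndufs6, Ndufs3 and Ndufa8, chosen after their values were seen. In other lists the gene named for each direction was the called one of lowest adjusted p. Some single genes are not reported here, though all stay in the counts and medians. Alternatives were DESeq2 1.42.0 and its size factors, scaling to library size only, a filter of over 14 counts per library or of 1 count in all, a threshold of 0.05, the replicate number as a block, limma-trend (limma 3.58.1) on log2(FPKM + 1), the offsets, leaving out Control replicate 1 and IS replicate 4 together, and leaving out each library. The offsets with the replicate block were added after the data were seen. On simulated counts for oxLDL vs Control over 20139 genes, edgeR called 88 of 100 genes changed by 1.0 and 45 of 100 changed by 0.5 on the log2 scale, and 13 unchanged genes. These counts were drawn independently with the same relative spread for every gene. They had no trend over GC content and no libraries that stood apart, so the calls are not error rates for the real libraries.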

Additional observations from a re-analysis of the deposited data

Results flagged for a closer look

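Among 72 checks of single libraries within groups of 5, made on the share of counts held by members and on 11 genes named by rule, 12 found the highest or lowest library far from the others. Chance gives about 1 in 20 for a single check. The checks reuse the same libraries, and several flags are IS replicate 4, so 12 of 72 cannot be set against that rate. Control replicate 1 was far below the other Control libraries in the share of counts on members (0.475%) and in Ndufv1 (206 CPM, others 277 to 289 CPM), and Control replicate 3 was above the others in Ndufab1 (81.8 CPM). IS replicate 4 was far above the other IS libraries in Ndufa13 (319.5 CPM, others 165 to 184 CPM), Ndufb7 (153 CPM), Ndufa3 (111 CPM), Ndufa11 (113 CPM) and Ndufs7 (109.8 CPM). With oxLDL + pNaKtide, replicate 3 was apart in Ndufaf4 (25.6 CPM, others 14.6 to 15.9 CPM) and Ndufab1 (113 CPM), and replicate 4 in Ndufa3 (178 CPM). With pNaKtide alone, replicate 3 was apart in Ndufs1 (257 CPM, others 167 to 191 CPM).

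The change with pNaKtide differed between settings in the edgeR test of the difference itself. Beside oxLDL against alone 20 members were called, with log2 differences of 0.76 for Ndufa11, 0.79 for Ndufa13, 0.80 for Ndufa3, 0.85 for Ndufb7 and -0.60 for Ndufs1. Beside oxLDL against beside IS 28 members were called, with 0.92 for Ndufa11, 0.86 for Ndufa11b, 0.97 for Ndufa13, 1.05 for Ndufa3, 1.02 for Ndufb7, -0.61 for Ndufs1 and 0.41 for Ndufs7. With the length and GC offsets the calls of Ndufs1 were lost in both differences (-0.25 and -0.23), as were that of Ndufa13 against alone (0.29) and those of Ndufa11b (0.19) and Ndufs7 (0.0036) against IS.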

How the results depend on the processing

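The total counts of members called in either direction (29, 38 and 28) for oxLDL vs Control, for oxLDL + pNaKtide vs oxLDL and for the difference of the peptide's changes beside oxLDL and beside IS stayed within 1.5 times the value given under every alternative, with ranges of 20 to 33, 34 to 39 and 21 to 31 when each library of the groups compared was left out. By direction, library size alone moved the lower calls from 25 to 15 for oxLDL vs Control and from 1 to 7 for oxLDL + pNaKtide vs oxLDL. IS vs Control, with 1 member called, depended most on the setting: 0 at an adjusted p of 0.05, 9 with DESeq2, 3 with library size alone, 7 with more than 14 counts in every library, 0 with at least 1 count in all, 2 with limma-trend on FPKM, 3 with the length and GC offsets, 33 without Control replicate 1 and IS replicate 4, and 0 to 26 when each library was left out. For pNaKtide vs Control DESeq2 called 1. For oxLDL + pNaKtide vs Control, with 12, DESeq2 called 21, more than 14 counts in every library gave 20, limma-trend 21, the offsets 19 and leaving out each library 7 to 20. For IS + pNaKtide vs Control, with 0, DESeq2 called 3, more than 14 counts in every library gave 1, the offsets 1, leaving out both libraries 25 and leaving out each library 0 to 20. The peptide's change beside oxLDL against alone, with 20, gave 34 without both libraries and 14 to 33 when each was left out. Shares of all genes called are not given beside the counts of this paragraph. The counts therefore show how far the member calls moved, but not whether they moved more than those of other genes. The cause was not tested.

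Whether the replicate numbers pair the libraries was not settled. Of 75 same-numbered pairs 34 had deviations correlated above 0.1, from -0.597 to 0.741. The median correlation was 0.079 for same-numbered pairs and -0.023 for other pairs. With the replicate block 13 members were called for IS vs Control (17.0% of all genes), 3 for IS + pNaKtide vs Control (6.64%) and 17 for oxLDL + pNaKtide vs Control (8.21%), and with the block and the offsets 4 (6.13%), 1 (3.56%) and 19 (10.5%). With the block the counts of the other comparisons stayed within 1.5 times.

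Some single genes changed sign. With the offsets, without and with the block, Ndufab1 was at -0.0484 and -0.0463 and Ndufs7 at 0.0587 and 0.0578 for oxLDL vs Control, where Ndufaf4 with the block was at -0.00180; Ndufaf4 was at 0.49 and 0.50, both past the threshold, for oxLDL + pNaKtide vs oxLDL; and Ndufaf4 was at -0.0878 and -0.0883 and Ndufab1 at -0.0654 and -0.0648 for IS vs Control. With library size alone Ndufab1 was at -0.0542 for oxLDL + pNaKtide vs oxLDL. Depth limits the low members Ndufa4l2 and Ndufa11b.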
